A study of Rattus norvegicus with 4 samples.

Results

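Ischemic muscle of rats that had received no treatment, electrical stimulation or exercise was set against sham muscle, to list the genes that stood apart from sham on all 3 ischemic arrays. A gene was taken when its signal on each of the 3 arrays was at least 1.5-fold above, or on each at least 1.5-fold below, its signal on the sham array. By this rule 95 of 10092 genes were taken, 67 higher and 28 lower than sham. The measured values that chose these genes are the same values given below, so their size and direction are a description, with no test.

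The RNA came from skeletal muscle of the F344/DuCrlCrlj rat strain, in a model of intermittent claudication, the leg pain that comes on walking when blood flow to the leg is restricted. The 4 groups were sham, ischemia, ischemia + ES (muscle contraction evoked electrically through the nerve) and ischemia + exercise, all of the same strain. The study set out to compare exercise and ES with untreated ischemia. Each group was 1 array. The muscle sampled, the age and number of animals behind an array, any pooling of RNA, and the timing of both treatments are missing from the labels used here. Nothing below could be checked against a replicate, since a ratio sets 1 array against 1 other. The 3 ratios of a gene also share the sham array, so a low or high reading on it moves all 3 together.

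Signals are MAS5 intensities, an arbitrary linear unit in which each array had been scaled to a common mean. Signals below 30.1, the median of all values of the 4 arrays, were set to that floor before a ratio was taken, and a gene at the floor on one side of a ratio has only a bound, written "at least". The median signal was 29.0 to 31.8 per array. All 8 skeletal muscle markers, among them the creatine kinase gene Ckm and the actin gene Acta1, had signals of 6496 to 13339 on every array. The 3' over 5' signal ratio of actin, which rises as RNA degrades, was 4.38 on sham, 3.81 on ischemia, 5.94 on ischemia + ES and 4.34 on ischemia + exercise. The same ratio of Gapdh was 1.16, 1.04, 1.26 and 1.16 on these arrays in that order. The part of either ratio in the results was not tested.

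As background, muscle whose blood supply is cut back loses oxygen and flow at its vessel walls, and muscle can also be damaged and repaired, which brings in macrophages and new matrix. Muscle burns fatty acids and glucose, and the kinases of pyruvate dehydrogenase set which of them is used. Immediate early genes are switched on within minutes by stretch, contraction, flow or handling of a tissue, and their transcripts are short-lived. Klf2 and Klf4 are transcription factor genes that endothelial cells express more under steady laminar flow.

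Single ratios passed 1.5-fold far more often than all 3 did. On the ischemia array 499 genes (4.94% of those compared) were higher than sham and 322 (3.19%) lower. With ischemia + ES 1249 (12.4%) were higher and 440 (4.36%) lower, and with ischemia + exercise 296 (2.93%) were higher and 172 (1.7%) lower. The 67 genes higher on all 3 are 0.664% of the genes compared, and the 28 lower ones 0.277%. Of the genes past 1.5-fold on the ischemia array alone, 13.4% of the higher and 8.70% of the lower ones were also past it, in the same direction, on both treated arrays. The balance between directions moved with the normalization. Of the listed genes 70.5% were higher, against 54.4% under quantile normalization (50 higher, 42 lower) and 57.1% under cyclic loess (56 higher, 42 lower).

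**Figure D1:**
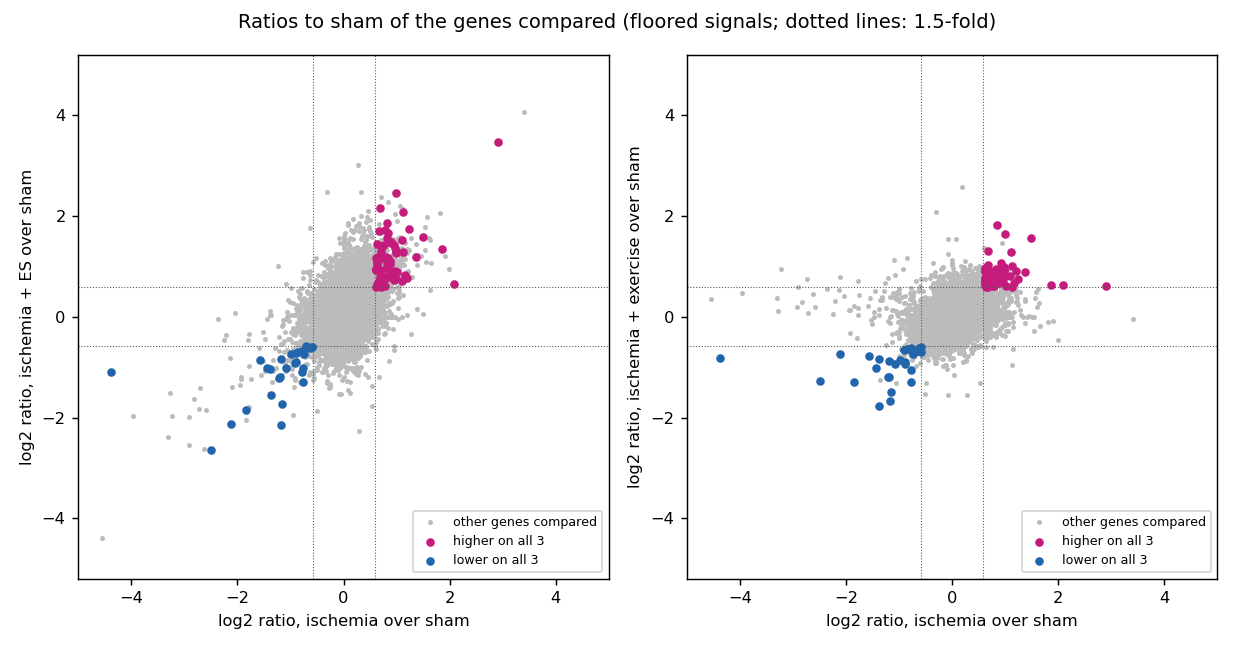
Log2 ratio to sham of the ischemia array (horizontal) against that of ischemia + ES (left panel, vertical) and ischemia + exercise (right panel, vertical), 1 grey point per gene compared, with the 67 genes higher on all 3 ratios in pink and the 28 lower in blue. All pink points lie above and all blue points below the 1.5-fold lines in both panels, by the rule, and Sln is the blue point farthest to the left, at -4.38.

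Most of the 95 genes were dim. The sham signal had a median of 46.2 in the higher set (range 17.8 to 2232) and 106 in the lower set (45.6 to 1420), against 164 over all genes compared. The mean of the 4 signals lay under 4 times the floor in 67.2% of the higher and 60.7% of the lower genes, and in 40.2% of all genes compared. On sham 14 of the 67 higher genes were at the floor, and 14 of the 28 lower genes were at the floor on at least 1 ischemic array, so the folds of those genes are bounds on those arrays. The smallest of the 3 folds ran from 1.503 to 2.81 with a median of 1.61 in the higher set, and from 1.504 to 2.59 with a median of 1.72 in the lower set. Dnm2 alone passed 2-fold on all 3 arrays in the higher set, against 8 genes in the lower set.

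The range of the 3 log2 ratios had a median of 0.43 in the higher set, 0.30 in the lower set and 0.36 over all genes compared. The floor, which gives dim signals the same value, can narrow this range in the lower set and over all genes compared. Its part in the differences between these medians was not tested. Ischemia + ES lay farthest above sham for 46 of the 67 higher genes, ischemia for 13 and ischemia + exercise for 8. Over the 2344 genes with all 3 ratios above 0, the same counts were 1324, 571 and 449. Both treated arrays were farther from sham than untreated ischemia for 26 of the 67 and both nearer for 13, while for 24 ES was farther and exercise nearer, and for 4 the reverse. In the lower set both treated arrays were farther for 6, both nearer for 9, ES alone farther for 2 and exercise alone for 1, and 10 had floored values that tie. This split into farther and nearer was not counted over all genes compared, so it is not read as a trait of the listed genes.

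Among the genes lower than sham, a group of transcription factors and signalling regulators is described first. This grouping by role was made after the values were seen. Fos encodes a subunit of the AP-1 transcription factor and is an immediate early gene. Its signal was 719 on sham, 127 on ischemia, 115 on ischemia + ES and 298 on ischemia + exercise, so the exercise array stood between the other ischemic arrays and sham, 2.41-fold below sham. Nr4a2, an orphan nuclear receptor gene, read 69.2 on sham and 25.9, 27.7 and 26.3 on ischemia, ischemia + ES and ischemia + exercise. All 3 ischemic values lay under the floor, a difference of at least 2.30-fold.

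Of 15 immediate early genes compared, these 2 were on the list, against 0.277% of all genes compared in the lower set. The gene lists were drawn up with earlier results of these data known, so nothing is read from such counts, here or below. The medians of the 15 were -0.28, -0.33 and -0.07 in log2 ratio for ischemia, ischemia + ES and ischemia + exercise, against 0.00, 0.06 and 0.01 over all genes compared. Other genes of this class went another way on the exercise array: Atf3 had log2 ratios of -1.95 and -1.35 with ischemia and ischemia + ES but 0.13 with exercise, and Nr4a3 read 38.0 on sham and 226 with exercise. Jun, the partner of Fos in AP-1, had log2 ratios of -0.28, -0.43 and -0.07.

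Klf2 had a signal of 913 on sham, 351 on ischemia, 442 on ischemia + ES and 508 on ischemia + exercise. Every ischemic array was 1.80-fold or more below sham, with the treated arrays closer to it. A second probe set of Klf2 gave log2 ratios of -1.58, -1.19 and -0.89, but 2 others gave -0.39, -0.35 and -0.39, and -0.04, -0.14 and 0.10. The first of those 2 was under the floor with ischemia and ischemia + exercise, so its ratios there are bounds. Klf4 read 636 on sham and 373, 258 and 307 on the ischemic arrays in the same order, with the ES array farthest from sham at 2.47-fold. Both genes are expressed by several cell types besides endothelium. The 8 endothelial markers compared had median log2 ratios of -0.22, 0.94 and 0.12, and their summed signal was 2244 on sham, 2133 on ischemia, 4359 on ischemia + ES and 2360 on ischemia + exercise. The part of the endothelial share of the tissue in the values of Klf2 and Klf4 was not tested. In a whole piece of muscle, fewer cells of a type and less RNA per cell cannot be told apart.

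For other regulators in the lower set, the range of the 3 log2 ratios ran from 0.10 for Nfkbia to 0.42 for Otud1. Otud1, a deubiquitinase gene, read 678 on sham and 251, 337 and 334 on ischemia, ischemia + ES and ischemia + exercise, which is 2.02-fold to 2.71-fold lower. Nfkbia, encoding the inhibitor that holds NF-kB in the cytoplasm and itself a target of NF-kB, read 364 on sham and 241, 238 and 224. Irs2, an adaptor of the insulin receptor, read 153 on sham and 89.3, 95.7 and 99.8. Both lay just past 1.5-fold, and of 15 growth factor and insulin signalling genes 1, Irs2, was on the list. Tent5c, a poly(A) polymerase gene, had the largest smallest fold of the lower set, 2.59-fold on the ischemia array. It read 103 on sham and 39.6, 35.0 and 29.0, the last under the floor. Fam135a (337 on sham, 167 to 216 on the ischemic arrays) and Rasd2, a small GTPase gene (89.7 on sham, 49.4 to 57.8), were 1.55-fold to 2.02-fold lower. The other probe set of Fam135a gave log2 ratios of -0.36, -1.14 and -0.38, and that of Rasd2 -0.80, -0.19 and -0.47. With the mean of all probe sets both fell short of 1.5-fold, with smallest log2 ratios of -0.51 and -0.44.

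A pair of genes of red blood cells and their precursors was lower on every ischemic array. Hba-a3, an alpha globin gene, read 662 on sham, 294 on ischemia, 148 on ischemia + ES and 209 on ischemia + exercise. Globin genes have near-identical copies, so the probe set may read more than 1 of them. Alas2, which starts haem synthesis in erythroid cells, read 240 on sham and 139, 112 and 97.4. For both genes the 2 treated arrays were farther from sham than untreated ischemia. The beta globin gene Hbb was not on the list, with 10334 on sham and 6999, 6766 and 7044, log2 ratios of -0.56, -0.61 and -0.55. Of these only the ratio of ischemia + ES was past 1.5-fold. The erythroid list had 3 genes compared, 1 of them on the list of 95. Its summed signal was 10600 on sham against 6898 to 7179 on the ischemic arrays, nearly all of it from Hbb. The other gene of that list, Slc4a1, was above the floor with exercise only, at 37.4. The amount of blood in the pieces was not measured, and its part in the other values was not tested.

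Npy, the neuropeptide Y gene that sympathetic nerves and some other cells express, read 588 on sham, 264 on ischemia, 178 on ischemia + ES and 210 on ischemia + exercise. Here too both treated arrays stood farther from sham than untreated ischemia, at 3.30-fold and 2.81-fold. The sarcolipin gene Sln, whose product slows calcium uptake by the sarcoplasmic reticulum, differed most among the ischemic arrays. Its signal was 1420 on sham, 68.2 on ischemia, 665 on ischemia + ES and 802 on ischemia + exercise. Both treatments therefore stood much nearer to sham than untreated ischemia did, yet 2.13-fold and 1.77-fold below it. Myh6, the alpha cardiac myosin heavy chain gene, read 56.9 on sham, 35.9 with exercise, and 15.5 and 9.74, under the floor, with ischemia and ischemia + ES.

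A bone matrix protein, a collagenase and a pair of growth factors are set together here by their secreted products, a grouping also made after the values were seen. Ibsp, the bone sialoprotein gene, read 108 on sham, 44.2 with exercise, and 8.58 and 19.8, under the floor, with ischemia and ischemia + ES. Mmp13, a collagenase gene, read 131 on sham, 79.0 with exercise, and 6.26 and 2.05 with ischemia and ischemia + ES. In both genes the exercise array lay between sham and the other 2, at 2.45-fold and 1.66-fold below sham. The growth factor gene Fgf9 read 90.4 on sham and 47.3 to 55.2 on the ischemic arrays, but its other probe set had log2 ratios of 0.00, 0.00 and 0.22. That probe set was above the floor with exercise only (35.1), so the ratios of 0.00 come from floored signals. Wnt6, the ligand gene of the Wnt family, read 55.9 on sham and lay under the floor on all 3, at least 1.86-fold lower.

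The remaining genes of the lower set had sham signals under 100, apart from 1 gene without a proper name. Tenm3, Cd6 (a T cell surface receptor gene), Lrrc37a and Emx2 (a homeobox gene) read 63.7 to 89.6 on sham, and each was at or under the floor on at least 1 ischemic array. Dxo and Pla2g2a, a secreted phospholipase gene, were under the floor on all 3, at least 1.68-fold and 1.51-fold lower. Tmem229a (46.6 on sham) and Helq, a DNA helicase gene (49.1), were under or close to the floor. LOC102549828 read 247 on sham and 125, 148 and 136 on the ischemic arrays. Where an ischemic value lies under the floor, the fold is a lower bound set by the floor.

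**Figure D2:**
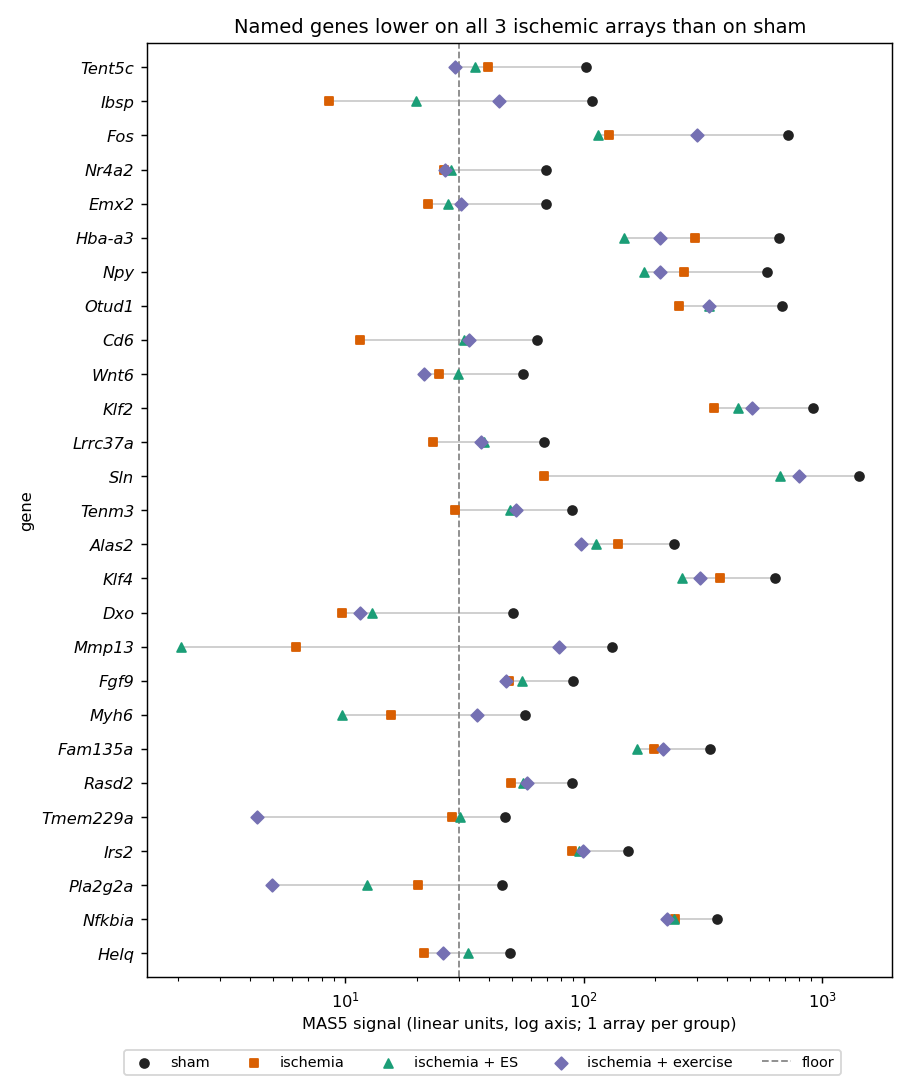
MAS5 signal (log axis) of the 27 named genes lower on all 3 ischemic arrays, 1 point per array, with the dashed line at the floor of 30.1. The black sham point is the rightmost in every row, Fos, Klf2, Klf4, Otud1, Npy and Hba-a3 have all 4 points to the right of the floor, and Sln has its ischemia point at 68.2 far to the left of the others.

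Promoter sequences of 3 lower genes are shown because each carries a motif of a factor the gene is known for: AP-1, of which the Fos protein is a subunit, NF-kB, which Nfkbia both restrains and answers to, and the GATA motif of erythroid genes. They were picked after the values were seen. Each is the 250 bases before the gene's start in RefSeq (GRCr8), 5′ to 3′ on the gene's strand, with the motif match in capitals. Mmp13 lies at chr8:12782579-12782828 on the plus strand, Nfkbia at chr6:78597073-78597322 on the minus strand and Alas2 at chrX:22895200-22895449 on the plus strand.
Mmp13: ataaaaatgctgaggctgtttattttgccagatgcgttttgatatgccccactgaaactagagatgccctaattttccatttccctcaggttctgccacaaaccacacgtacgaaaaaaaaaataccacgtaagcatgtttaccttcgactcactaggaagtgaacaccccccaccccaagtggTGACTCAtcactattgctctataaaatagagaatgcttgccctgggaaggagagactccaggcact
Nfkbia: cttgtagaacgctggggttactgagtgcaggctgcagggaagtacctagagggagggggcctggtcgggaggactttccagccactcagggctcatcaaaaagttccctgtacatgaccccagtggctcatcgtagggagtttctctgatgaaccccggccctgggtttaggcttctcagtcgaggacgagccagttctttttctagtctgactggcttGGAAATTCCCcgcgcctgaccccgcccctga
Alas2: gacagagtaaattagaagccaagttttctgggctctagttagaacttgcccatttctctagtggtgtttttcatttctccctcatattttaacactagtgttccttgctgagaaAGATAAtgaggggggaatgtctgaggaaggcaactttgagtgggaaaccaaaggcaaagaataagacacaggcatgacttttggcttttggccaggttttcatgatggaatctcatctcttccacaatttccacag

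The capitals mark the AP-1 motif TGANTCA in Mmp13, 66 to 60 bases before the start, the NF-kB motif in Nfkbia, 31 to 22 bases before it, and AGATAA in Alas2, 136 to 131 bases before it. Both strands were searched. Promoters were found for 20 of 28 lower and 55 of 67 higher genes. The AP-1 motif stood in 1 of the 20 and 6 of the 55, against 6.36% of 27457 promoters of the same length. The NF-kB motif stood in 2 and 9, against 6.41%, and AGATAA in 2 and 0, against 10.1%. A match is a stretch of letters and not evidence of binding.

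In the set higher than sham, vessel and guidance genes were among those with the widest differences, again grouped after the values were seen. Cxcr4, the receptor of the chemokine Cxcl12, read 93.2 on sham, 185 on ischemia, 512 on ischemia + ES and 290 on ischemia + exercise, 1.98-fold to 5.49-fold higher. Its 2 other probe sets gave log2 ratios of 0.98, 2.28 and 1.41, and of 0.79, 2.42 and 1.55, so all 3 probe sets passed 1.5-fold on every ischemic array. Cldn5, a tight junction gene of endothelium, read 184 on sham, 298 on ischemia, 821 on ischemia + ES and 297 on ischemia + exercise. Hey1, a transcriptional repressor gene downstream of Notch, had the same order, with 62.4 on sham, 112, 196 and 109. In Cldn5 and Hey1 the ischemia and exercise arrays were nearly level, and the ES array stood above them.

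Of 8 endothelial markers 1, Cldn5, was on the list, and of 15 angiogenesis genes 1, Cxcr4. The share of all genes compared that were in the higher set was 0.664%. Of the other endothelial markers, Pecam1, Emcn and Egfl7 had log2 ratios of 0.25, -0.24 and -0.23 with ischemia, 1.31, 0.89 and 0.997 with ischemia + ES, and 0.37, 0.10 and 0.13 with ischemia + exercise. On the same arrays in that order, Tie1 had 0.32, 1.33 and 0.36, and Vwf -0.65, -0.08 and 0.12. Kdr had -0.21, 0.68 and -0.395, and Tek -0.23, 0.47 and -0.09. The part of the endothelial share of the tissue in the values of Cldn5, Cxcr4 and Hey1 was not tested. Plvap, which builds the diaphragms of capillary openings and was named after its values were seen, read 157 on sham and 256, 238 and 253, so its 3 ischemic values were close together. Adamts9, a metalloproteinase gene, read 38.3 on sham and 75.5, 92.0 and 75.8, and its relative Adamts12 32.3 on sham and 69.0, 92.2 and 56.4.

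Genes of fuel choice formed another group. Pdk4, the kinase that switches pyruvate dehydrogenase off and so spares glucose, was the brightest gene of the higher set. It read 2232 on sham, 3570 on ischemia, 5232 on ischemia + ES and 4570 on ischemia + exercise. Both treated arrays were thus farther from sham than untreated ischemia, at 2.34-fold and 2.05-fold against 1.6-fold. A second probe set of Pdk4 gave log2 ratios of 0.55, 0.93 and 0.87, short of 1.5-fold on the ischemia array. Angptl4, a secreted inhibitor of lipoprotein lipase, read 36.5 on sham and 85.7, 122 and 61.5. Of 29 genes that take up or oxidize fatty acids, these 2 were on the list, and the medians of the 29 were -0.40, 0.15 and -0.08. Hsd11b1, which regenerates active glucocorticoid inside cells, read 102 on sham and 190, 281 and 168. Scarb1, a receptor for high density lipoprotein named as just inside the threshold, read 50.2 on sham and 110, 211 and 75.8, and its other probe set had log2 ratios of 0.36, 0.74 and 0.37. That other probe set was under the floor on sham, so these ratios are bounds.

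Pik3ip1, an inhibitor of phosphoinositide 3-kinase, read 139 on sham, 318 on ischemia, 237 on ischemia + ES and 258 on ischemia + exercise, but the smallest log2 ratio of the mean of its probe sets was -0.48. Its only other probe set was under the floor on all 4 arrays, at 0.81 to 12.8, so that sign rests on unmeasured signals. Nr1d1, a repressor in the circadian clock, read 140 on sham and 224, 308 and 346, the exercise array being highest. Of 15 clock genes 1, Nr1d1, was on the list. Its close relative Nr1d2 had log2 ratios of 0.21, 0.53 and 0.65, in the same order. It was past 1.5-fold on the exercise array only. The clock output gene Dbp read 125 on sham, 118 on ischemia, 368 on ischemia + ES and 297 on ischemia + exercise. The labels do not say at which hour the tissue was taken.

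Genes of macrophages and of matrix were represented by Gpnmb, Lgals3, Mnda and Lox, which differed in where the exercise array stood. Gpnmb, a glycoprotein of macrophages and other phagocytes, read 105 on sham, 787 on ischemia, 1158 on ischemia + ES and 160 on ischemia + exercise. The exercise value was near sham, at 1.52-fold, and the other 2 were 7.5-fold and 11.0-fold higher. Under quantile normalization its smallest log2 ratio was 0.58, just short of 1.5-fold, and Gpnmb was then not on the list. Lgals3, encoding galectin-3, a sugar-binding protein of macrophages and other cells, read 449 on sham, 804, 881 and 1590, so its exercise value was the highest of the 3 where that of Gpnmb was the lowest. Mnda, a myeloid gene named after its values were seen, read 60.6 on sham, 257 on ischemia, and 95.2 and 94.2 on the treated arrays.

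Of 10 macrophage markers 1, Gpnmb, was on the list. The summed signal of the macrophage markers was 1698 on sham, 3975 on ischemia, 4754 on ischemia + ES and 1776 on ischemia + exercise, and their median log2 ratio was 0.90, 0.72 and -0.04 (0.00 with the floor at the 70th percentile for the last). Cd68 was under the floor with exercise. The lymphocyte markers Cd3e, Cd3d, Cd79b, Cd8a, Cd4 and Cd2 were under the floor on all 4 arrays. Cd3g was above it with ischemia (33.4) and ischemia + ES (35.6) only, and the leukocyte gene Ptprc read 60.6 on sham and 108, 116 and 45.8. Of 27 matrix genes 1, Lox, which crosslinks collagen, was on the list. It read 116 on sham, 421, 296 and 179, and its other probe set had log2 ratios of 1.91, 1.71 and 0.84. The median of the 27 was 0.90, 0.88 and 0.01 in log2 ratio. Whether cell makeup bears on Gpnmb, Lgals3, Mnda or Lox was not tested.

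Immune response genes on the list included Gbp2 and RT1-CE10. Gbp2, an interferon-induced GTPase gene, read 62.9 on sham and 104, 167 and 106. Of 16 interferon response genes 1, Gbp2, was on the list. RT1-CE10, a class I histocompatibility gene, read 43.1 on sham and 84.6, 81.0 and 82.3, nearly equal on the 3 ischemic arrays. It belongs to a family of near-identical genes, so its probe set may read others. None of the 14 genes of the antigen presentation list, which does not hold RT1-CE10, was on the list of 95, and their median log2 ratios were 0.48, 0.62 and 0.02. Ptgfrn, which binds the prostaglandin F receptor, read 64.5 on sham and 114, 132 and 115.

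Glrx, encoding glutaredoxin, which reduces glutathione-bound proteins, read 146 on sham, 375 on ischemia, 332 on ischemia + ES and 270 on ischemia + exercise. Its other probe set gave log2 ratios of 0.96, 0.33 and -0.38, so the 2 probe sets did not give the same direction on the exercise array. Nucb2, from which the peptide nesfatin-1 is cut, read 73.6 on sham and 161, 178 and 147, close to 2-fold or above it on each array. Dnm2, encoding the membrane-cutting GTPase dynamin 2, lay just under the floor on sham at 27.9 and read 84.7, 90.3 and 88.7, at least 2.81-fold higher. Its 3 ischemic values differed by little, and this was the largest smallest fold of the higher set.

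Further named genes had smaller or dimmer differences. Stambpl1, Lxn (latexin, a carboxypeptidase inhibitor), Msl3l2 and Xab2 read 34.7 to 51.4 on sham and 57.9 to 169 on the ischemic arrays. B3galnt1, a glycosyltransferase gene, read 138 on sham and 245, 308 and 227. Ccdc92 read 92.0 on sham and 151 to 223, but its other probe set had log2 ratios of 0.35, -0.20 and -0.03. Spsb1 read 57.1 on sham and 93.8 to 107, but its other probe set had log2 ratios of 0.45, 0.04 and -0.08, and the smallest ratio of the mean of its probe sets was -0.003. Zfp619, Ccdc88c, Ip6k2 (an inositol phosphate kinase gene) and Tle3 (a corepressor gene) were under the floor on sham, at least 1.81-fold, 1.80-fold, 1.76-fold and 1.74-fold higher. The 37 genes of the higher set outside the plotted ones, with Plvap, Scarb1 and Mnda among them, had smallest folds of 1.503 to 1.65 and sham signals of 19.1 to 289.

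**Figure D3:**
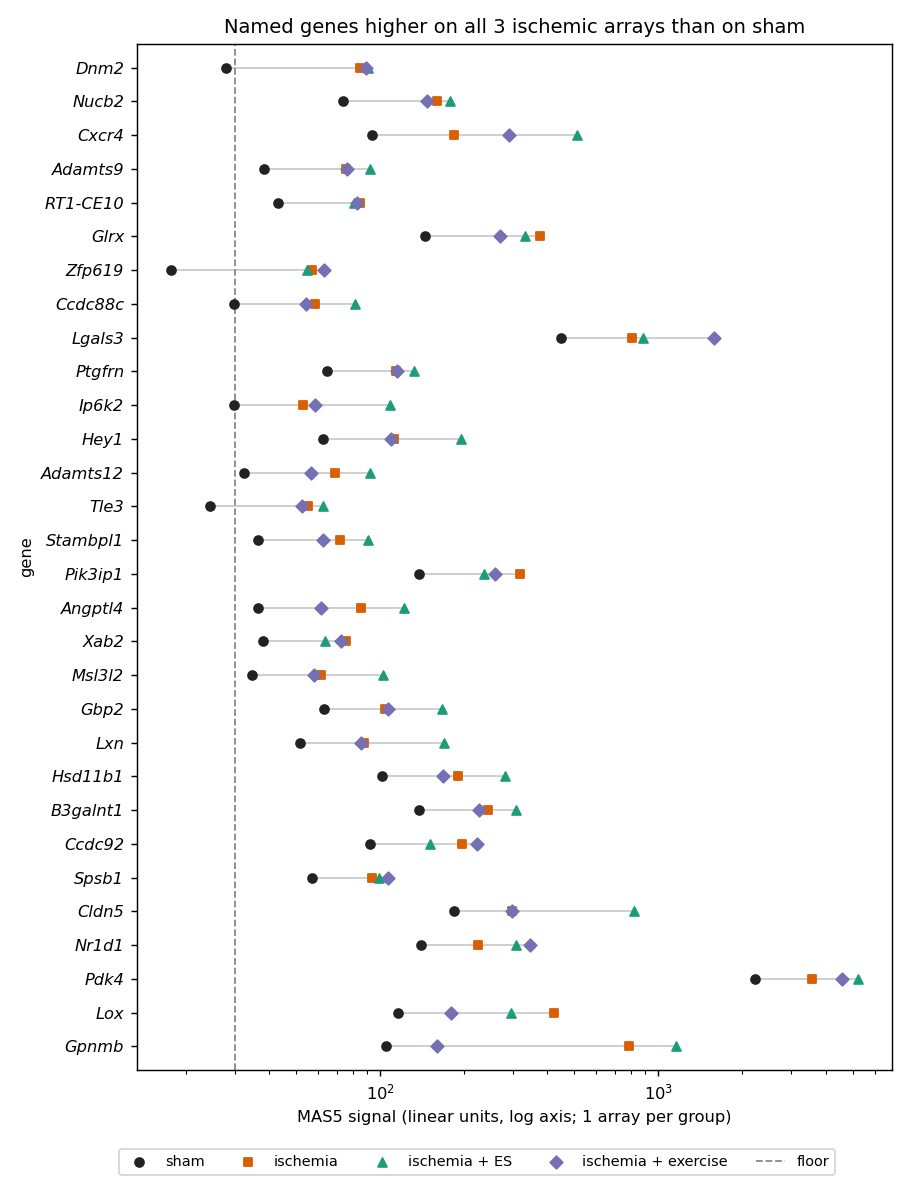
MAS5 signal (log axis) of the 30 genes that the naming rule took from the 67 higher on all 3 ischemic arrays, 1 point per array, with the dashed line at the floor of 30.1. The black sham point is the leftmost in every row, the green ischemia + ES point lies far to the right for Cxcr4, Cldn5 and Gpnmb, and the exercise point is the highest for Lgals3 and Nr1d1.

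Genes just inside and just outside the threshold had near-equal values. In the higher set Slc38a6, Scarb1 and Btd had smallest folds of 1.503, 1.51 and 1.51, and Enpp3, LOC100912167 and Cds1 missed with 1.49, 1.49 and 1.48. In the lower set Helq, Nfkbia and Pla2g2a had 1.504, 1.51 and 1.51, and Clec1b, Mpv17l and Wrap73 missed with 1.4998, 1.49 and 1.49.

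A second probe set above the floor was available for 11 of the 67 higher genes and 4 of the 28 lower ones. It passed 1.5-fold on all 3 ratios for Cxcr4, Lox and Klf2. All other probe sets had the same sign on all 3 ratios for 6 of the 11 and 2 of the 4. At least 1 of them had the opposite sign on an array for 4 of the 11 and 2 of the 4, and that of Mtarc1 was at the floor on 3 arrays.

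Beyond single genes, 37 gene lists were read for how many of their genes stood on the list. They held 443 genes compared, 8 of them in the higher and 4 in the lower set, 2.71% against 0.941% of all genes compared. The lists were drawn up with earlier results of these data known, so nothing is read from that share. The 12 genes were spread over 10 lists, and none of the 11 slow-twitch contractile genes was among them: their median log2 ratio was -2.71 with ischemia, -1.52 with ES and 0.19 with exercise. No gene of the 17 hypoxia-inducible factor targets, 16 glycolysis and glycogen genes, 12 heat shock genes, 14 muscle atrophy genes or 13 mitochondrial gene regulators was on the list.

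**Figure D4:**
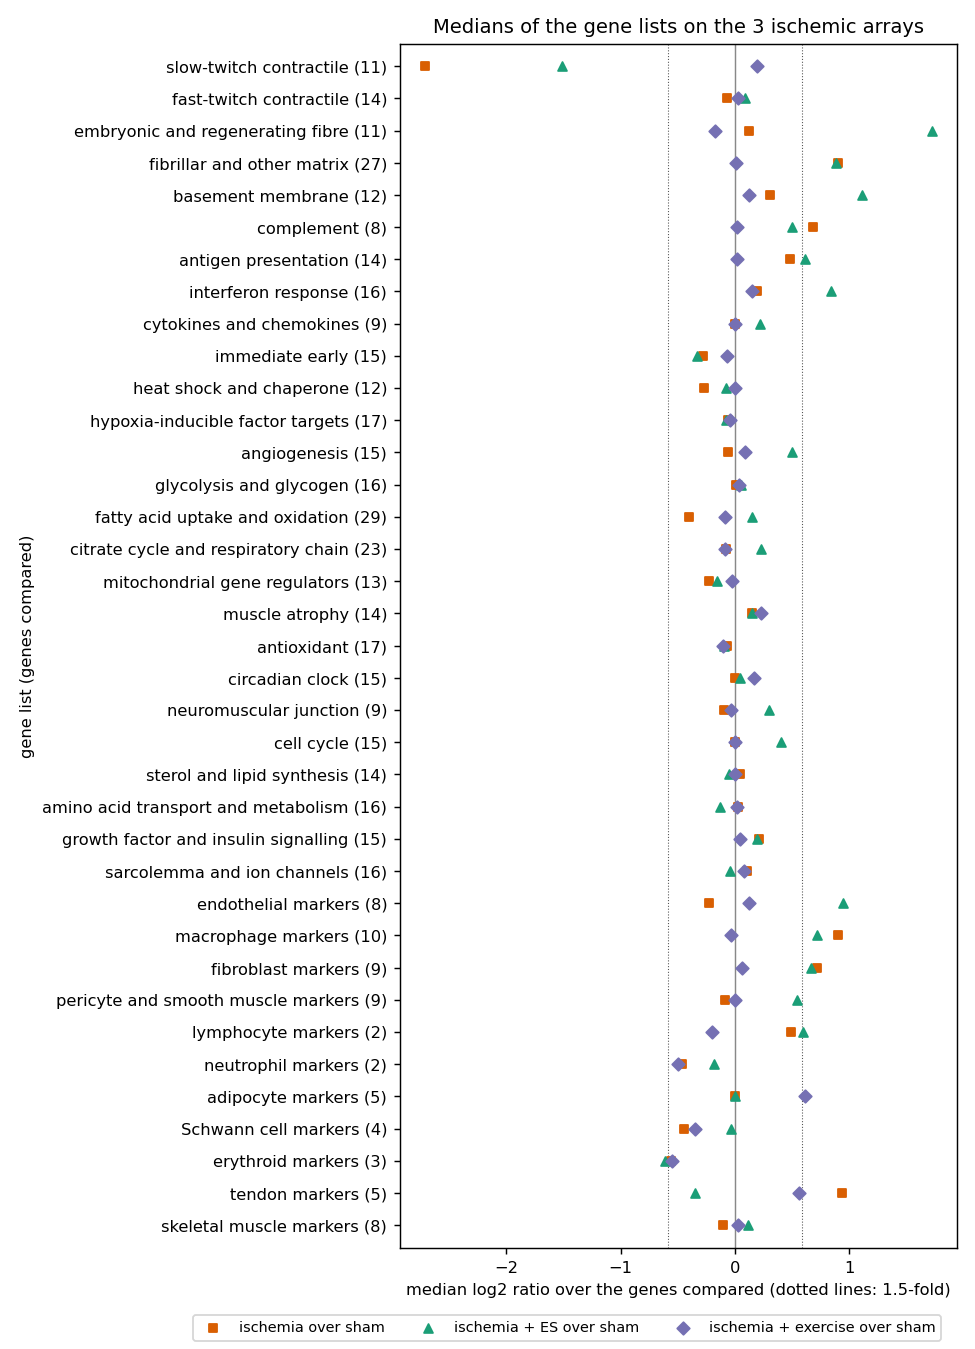
Median log2 ratio to sham of each gene list (number of genes compared in parentheses) on the ischemia, ischemia + ES and ischemia + exercise arrays, 1 point per array, with dotted lines at 1.5-fold. The slow-twitch list lies at -2.71 and -1.52 with ischemia and ischemia + ES and at 0.19 with exercise. The erythroid list, of 3 genes, has all 3 points between -0.61 and -0.55, which are the ratios of Hbb.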

How the data were processed

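For each of 4 arrays the authors deposited the intensity of 31099 probe sets. Per the submitters' processing notes the values are MAS5 signals, and each array had a 2% trimmed mean of 150.1, so scaling came before deposit. The scaling hides differences in total mRNA. The genome build is not given in the sources used here. The platform annotation names a single gene for 20832 probe sets, several for 436 and none for 9831. All 95 listed genes had their gene ID in a RefSeq table (GRCr8).

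Values were rescaled to a common trimmed mean, floored at the 50th percentile of all values and compared as log2 ratios in Python 3.11.15. Quantile and loess alternatives used limma 3.58.1. A gene was its probe set of highest mean signal. Of 14218 genes, 10092 lay above the floor on at least 1 array. With 1 array per group there was no test and no p-value. The number of arrays limits the precision. The calculation was tested on simulated arrays. Its behaviour for dim genes near the threshold, where most listed genes lie, was not tested.

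The rule named every lower gene with a proper symbol, and of the higher genes the 20 with the largest smallest ratio above the floor on all arrays, the 5 largest bounds and those in a list. It also took the 3 genes either side of the threshold. Genes and lists were chosen with earlier results of these data known.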

Additional observations from a re-analysis of the deposited data

How the results depend on the processing

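The counts depended on the threshold, the floor and which arrays were required. With a looser fold threshold there were 335 higher and 133 lower genes, and with 2-fold 1 and 8. A floor at the 30th percentile gave 192 and 112, and one at the 70th percentile 17 and 12, over 12567 and 7099 genes compared. Without the exercise array as a requirement there were 317 higher and 106 lower genes, without the untreated ischemia array 146 and 57, and without the ES array 92 and 52. Each of these sets contains, or lies within, the 67 and 28 by construction of the rule, other than through the floor, where all 67 and 28 were kept at the lower one. Quantile normalization gave 50 and 42, cyclic loess 56 and 42, the mean of all probe sets 68 and 31 (44 and 18 shared with the main sets), leaving out probe sets open to cross-hybridization 66 and 27, and requiring no other probe set to go the other way 63 and 26.

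Of 57 named genes, the smallest ratio fell short of 1.5-fold without turning for 1 under quantile normalization (Gpnmb), 13 of the 35 still compared with the floor at the 70th percentile and 9 of 53 with the mean of all probe sets (Adamts9, Glrx, Ccdc92, Ip6k2, Nr4a2, Klf2, Fgf9, Fam135a and Rasd2). It turned with that mean for Pik3ip1 (-0.485) and Spsb1 (-0.003). The only other probe sets of Adamts9, Ip6k2, Nr4a2 and Pik3ip1 were under the floor on all 4 arrays, so their means include unmeasured signals. The cause was not tested beyond that. No paired analysis was possible because each group has 1 array. Signals near the floor limit most of these genes, and the number of arrays limits all of them.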

Other observations

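Some genes met the rule on a probe set other than their brightest and so were not on the list, 16 in the higher and 15 in the lower direction. One was Cxcl12, the ligand of the receptor Cxcr4. A dimmer probe set of Cxcl12 read 787 on sham and 517, 493 and 475 on ischemia, ischemia + ES and ischemia + exercise, 1.52-fold or more lower on each. The brightest probe set of Cxcl12 read 696 on sham and 692, 810 and 689, so the direction of this gene is not settled. Igfbp3, a carrier of insulin-like growth factors, read 169 on sham and 277, 373 and 262 on a dimmer probe set, with log2 ratios of 0.57, 0.67 and 0.35 on the brightest. These genes were picked after their values were seen.

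Without a gene symbol, 29 probe sets were past 1.5-fold on all 3 ratios in the higher and 15 in the lower direction, out of 115 and 62 probe sets of any annotation. They are not named here.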
